A study of Homo sapiens with 4 samples.

Results

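RGS16 and the other genes for regulators of G protein signaling (RGS proteins) were followed in 2 human melanoma cell lines after knockdown of the long noncoding RNA LINC00622. RGS16 was chosen by its high ratio of siLINC00622 to siNC in these libraries, and RGS2, RGS3, RGS4, RGS5, RGS10, RGS12, RGS14, RGS19 and RGS20 were named beside it with those ratios known. The knockdown ratios below are therefore a description, with no test. Of the 10 symbols, 9 were listed among the 17755 genes of the expression table, in 10 rows, because the symbol RGS5 stands on 2 rows. RGS4 has no row in the table, whose lowest mean FPKM over the 4 libraries is 0.25, and was not analysed here.

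Both lines, SK-MEL-28 and A375, were established from human melanoma, although the labels also name the material as melanoma tissue. Each line received either a control siRNA (siNC) or siRNA against LINC00622 (siLINC00622) with a transfection reagent at about 70% confluency. All 4 cultures then stayed 6 h without serum and 24 h in medium with 10% serum. Poly(A) RNA was sequenced in 1 library per condition, so each ratio of siLINC00622 to siNC compares 2 libraries and has no replicate check. Each line is a single line, and its 2 libraries differ in treatment.

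Heterotrimeric G proteins are switched on by receptors, which load GTP onto the G alpha subunit, and switched off when G alpha hydrolyses that GTP. RGS proteins bind the active G alpha subunit through their RGS domain and speed up this hydrolysis, which shortens signals from G protein-coupled receptors to adenylyl cyclase, phospholipase C beta and the beta-gamma effectors. The genes followed here belong to 3 subfamilies. RGS2, RGS3, RGS5 and RGS16 are of the R4 subfamily, which acts mainly on the Gi and Gq classes. RGS19 and RGS20 are of the RZ subfamily, and RGS10, RGS12 and RGS14 of the R12 subfamily, which acts mainly on the Gi class.

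LINC00622 (ENSG00000260941) had counts of 309 (siNC) and 135 (siLINC00622) in SK-MEL-28, against 135 and 86 in A375. Its log2 ratio was -1.21 (95% counting interval -1.53 to -0.93) in SK-MEL-28 and -0.84 (-1.27 to -0.46) in A375, so the labels of all 4 libraries and the target's level went together. Library totals lay between 31269923 and 36384819 counts. All 8 pigment cell markers were listed, with a summed level of 2061 and 2210 FPKM in the SK-MEL-28 libraries and 133 and 166 FPKM in the A375 libraries, where most of the sum was SOX10. Of other cell types, 2 of 4 keratinocyte markers were listed (19.1 to 32.4 FPKM in sum), 1 of 4 fibroblast markers (2.24 to 9.77 FPKM), 2 of 4 pericyte markers (0.111 to 4.59 FPKM) and 0 of 3 markers each of endothelium and leukocytes.

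The agent and the genes that stand out with it can be read in sequence. The study's list of oligonucleotides gives a pair of siRNA sequences against LINC00622, and the labels do not say which of them the libraries received. They are shown because every knockdown ratio rests on them. Capitals mark the 7 bases that pair with positions 2 to 8, the seed, of a guide strand complementary to the listed strand.
siLINC00622_1: ccctaaagaaaGTGAGAAa
siLINC00622_2: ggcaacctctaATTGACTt

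In the longest annotated 3′ UTR of each gene (GENCODE 29), the word GTGAGAA occurs in none of the 9 listed RGS genes and in 14.1% of 11778 genes of the table. The word ATTGACT occurs in RGS5 alone among them, in 1 copy, and in 11.5% of the 11778 genes. The 3′ UTR of RGS16, of 1669 bases, and that of RGS19, of 672 bases, hold neither word. A match is a description of letters, not a site of action.

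RGS16 and RGS19 had the highest knockdown ratios of the 9 genes in each line, and the 250 bases before their annotated starts are shown for that reason, from RefSeq on GRCh38.p14. Of the 10 symbols, 9 had a start region there. Capitals mark the GC box GGGCGG, the CCAAT box, the words TATAAA and also TTTAAA, the E-box CACGTG and the cyclic AMP response element TGACGTCA, searched on both strands. RGS16 lies on chromosome 1 (chr1:182598623-182604408, minus strand) and RGS19 on chromosome 20 (chr20:64073181-64079988, minus strand) in GENCODE 29 on GRCh38. The expression table gives no coordinates, and the submitters' processing notes name build hg19. The stretch of RGS16 is chr1:182604390-182604639 and that of RGS19, at the more upstream of its 2 starts, is chr20:64079965-64080214, both on the minus strand.
RGS16: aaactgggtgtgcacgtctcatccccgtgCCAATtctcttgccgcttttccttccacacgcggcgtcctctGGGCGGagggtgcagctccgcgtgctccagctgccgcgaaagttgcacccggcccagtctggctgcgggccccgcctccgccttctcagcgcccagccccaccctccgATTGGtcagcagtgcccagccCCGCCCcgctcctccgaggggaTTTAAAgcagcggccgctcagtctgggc
RGS19: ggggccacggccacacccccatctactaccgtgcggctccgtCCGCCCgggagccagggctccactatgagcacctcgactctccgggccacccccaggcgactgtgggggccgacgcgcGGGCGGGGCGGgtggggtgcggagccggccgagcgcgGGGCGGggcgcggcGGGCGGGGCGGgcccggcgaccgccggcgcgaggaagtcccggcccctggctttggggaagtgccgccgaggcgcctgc

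The RGS16 stretch holds 2 GC boxes, 2 CCAAT boxes and 1 TTTAAA, and is 68.4% G and C. The RGS19 stretch holds 6 GC boxes and none of the other words, and is 80.4% G and C. Over all 35116 such stretches, 42.6% hold a GC box, 32% a CCAAT box and 11.3% the word TTTAAA, and the median content of G and C is 58%. The word TATAAA (10.7% of stretches), the E-box (6.34%) and the cyclic AMP response element (1.65%) were not found in either stretch shown. The stretch at the other RGS19 start, which is not shown, holds 4 GC boxes and 1 E-box.

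RGS16 (ENSG00000143333), which encodes a small R4 protein acting on Gi and Gq, was higher with siLINC00622 than with siNC in both lines. In bulk RNA, more cells with the transcript and more transcript per cell cannot be told apart. It had counts of 43 (siNC) and 83 (siLINC00622) in SK-MEL-28, against 278 and 803 in A375. In FPKM, a level per gene length and library size, these were 0.539 and 1.01 in SK-MEL-28, against 3.69 and 9.17 in A375. Here and below, the siNC library comes before the siLINC00622 library where a pair of values is given for a line. The highest SK-MEL-28 library was below the lowest A375 library. The ratio of siLINC00622 to siNC was 1.85-fold in SK-MEL-28 (log2 0.89, interval 0.37 to 1.48) and 2.49-fold in A375 (log2 1.32, interval 1.12 to 1.52). These 95% intervals, and those below, cover counting error only, since each condition had 1 library. Reads carried no molecular identifiers, so copies of 1 molecule could not be told apart from separate molecules. The ratio in A375 exceeded that in SK-MEL-28 by 0.43 on the log2 scale, with a counting interval of -0.14 to 0.99 that includes 0. Among genes that reached 10 counts in a library of the line, RGS16 ranked 63 from the top of 16021 by ratio in A375 and 251 of 15442 in SK-MEL-28. The few reads of RGS16 in SK-MEL-28 gave an interval much wider than that in A375.

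**Figure D1:**
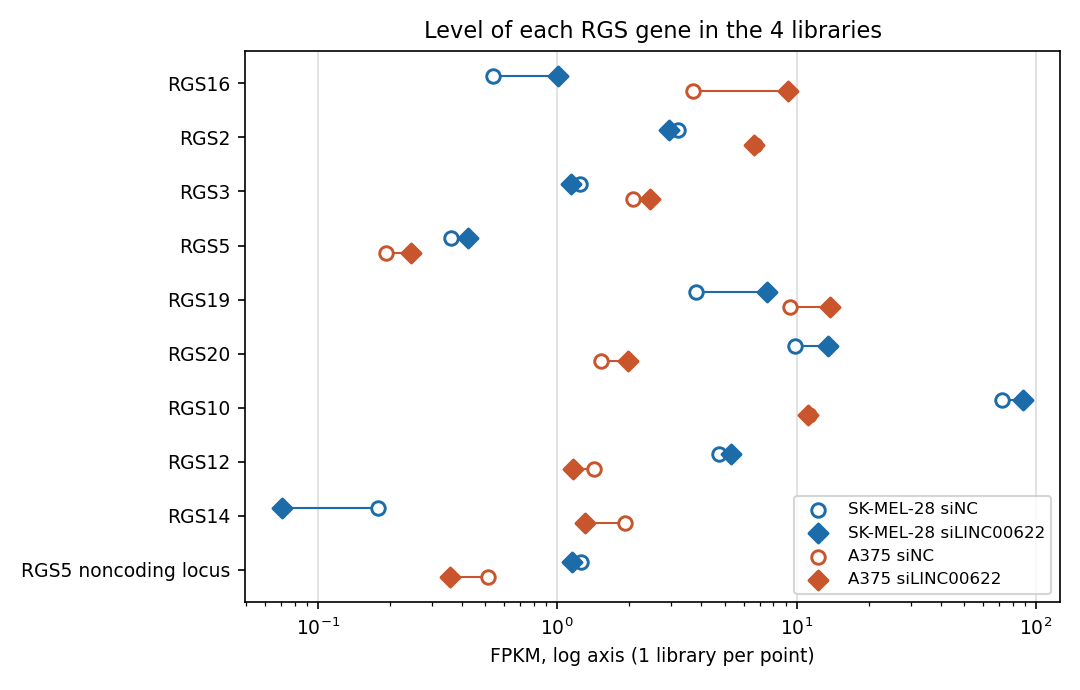
Level of each RGS gene in the 4 libraries, in FPKM on a log axis. Open circles are siNC and filled diamonds siLINC00622, 1 library each, with SK-MEL-28 in blue and A375 in orange. RGS16 goes from 0.539 to 1.01 FPKM in SK-MEL-28 and from 3.69 to 9.17 FPKM in A375, while RGS10 in SK-MEL-28 lies far to the right of all other points.

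RGS19 and RGS20, of the RZ subfamily, had positive log2 ratios in both lines, as RGS16 had. RGS19 (ENSG00000171700), also known as GAIP and named for its binding to G alpha, had counts of 256 (siNC) and 522 (siLINC00622) in SK-MEL-28, against 593 and 1021 in A375. Its level was 3.81 and 7.53 FPKM in SK-MEL-28, against 9.35 and 13.8 FPKM in A375, so each siLINC00622 library was above the siNC library of its line. The ratio was 1.99-fold in SK-MEL-28 (log2 0.99, interval 0.78 to 1.22) and 1.49-fold in A375 (log2 0.57, interval 0.43 to 0.72), just short of the 1.5-fold limit used below. Unlike RGS16, RGS19 had its greater ratio in SK-MEL-28, and the difference between the 2 ratios, -0.42 (interval -0.68 to -0.16), lay apart from 0 in counting error. RGS20 (ENSG00000147509), which acts on G alpha z, had 1042 and 1479 counts in SK-MEL-28, against 152 and 231 in A375. Its log2 ratio was 0.47 (0.36 to 0.59) and 0.39 (0.09 to 0.70), and the difference between the lines' ratios, -0.08 (-0.40 to 0.23), was within counting error.

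RGS2, RGS3 and RGS5, also of the R4 subfamily, had smaller ratios than RGS16. RGS1, an R4 gene taken up below, had a log2 ratio of 0.86 (0.66 to 1.07) in SK-MEL-28. That is close to the 0.89 of RGS16 there, and RGS1 had too few counts in A375 for a ratio. RGS2 (ENSG00000116741), which is selective for Gq, had 221 and 208 counts in SK-MEL-28, against 436 and 504 in A375. With log2 ratios of -0.12 (-0.40 to 0.16) and 0.00 (-0.19 to 0.19), neither line showed a difference beyond counting error. RGS3 (ENSG00000138835), which acts on Gi and Gq, had 567 and 538 counts in SK-MEL-28, against 892 and 1221 in A375. Its log2 ratio was -0.11 (-0.28 to 0.07) in SK-MEL-28 and 0.24 (0.12 to 0.37) in A375, which differ by 0.35 (0.14 to 0.56).

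RGS5, best known as a gene of pericytes, stands on 2 rows. The protein-coding gene (ENSG00000143248, chr1:163111121-163321791, minus strand) had 79 and 96 counts in SK-MEL-28, against 40 and 59 in A375, with log2 ratios of 0.24 (-0.19 to 0.70) and 0.34 (-0.25 to 0.97). A noncoding locus under the same symbol (ENSG00000232995, chr1:163244505-163321894, minus strand) had 151 and 143 counts in SK-MEL-28, against 58 and 47 in A375, with log2 ratios of -0.11 (-0.45 to 0.23) and -0.49 (-1.10 to 0.07). All 4 intervals include 0. The exons of both rows share 534 bases on the same strand, so reads there cannot be told apart. With both rows summed, a choice made after the data were seen, the log2 ratio of RGS5 was 0.02 for SK-MEL-28 and -0.09 for A375, so the direction in A375 turned.

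The R12 genes did not share a direction. RGS14 (ENSG00000169220), a scaffold with Ras-binding domains and a GoLoco motif, had counts of 22 (siNC) and 9 (siLINC00622) in SK-MEL-28, against 221 and 176 in A375. It was lower in the siLINC00622 library of both lines, with log2 ratios of -1.15 (-2.62 to -0.14) and -0.53 (-0.83 to -0.25), and it passed the count limit in SK-MEL-28 only through its siNC library. RGS10 (ENSG00000148908), a small protein of little more than the RGS domain, had 3051 and 3829 counts in SK-MEL-28, against 450 and 519 in A375. Its log2 ratio was 0.30 (0.23 to 0.37) in SK-MEL-28 and 0.00 (-0.19 to 0.18) in A375. RGS12 (ENSG00000159788), a large protein with a PDZ domain, had 2168 and 2503 counts in SK-MEL-28, against 611 and 580 in A375. Its log2 ratios had opposite signs, 0.18 (0.09 to 0.26) in SK-MEL-28 and -0.28 (-0.45 to -0.12) in A375, and differed by -0.46 (-0.64 to -0.28). It was the 1 row of 10 with opposite signs and both intervals apart from 0, a pattern found in 6.4% of 14721 genes.

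**Figure D2:**
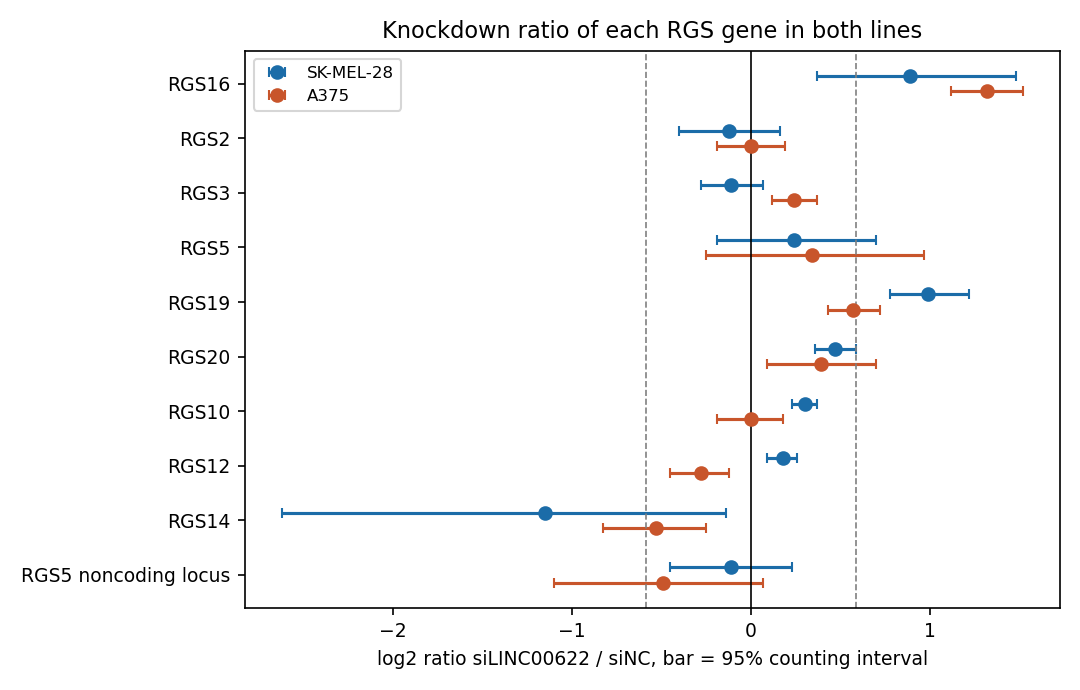
Log2 ratio of siLINC00622 to siNC for each RGS gene in SK-MEL-28 (blue) and A375 (orange), with bars for the 95% counting interval. Dashed lines mark 1.5-fold in each direction. RGS16 lies past the upper line in both lines, RGS19 past it in SK-MEL-28 and just inside it in A375, and RGS14 lies past the lower line in SK-MEL-28.

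Counted against a 1.5-fold limit, 2 of the 10 rows were higher in SK-MEL-28 (RGS16 and RGS19) and 1 was lower (RGS14). Of all genes with at least 10 counts in SK-MEL-28, 4.56% were past 1.5-fold up and 6.49% past it down. In A375, 1 of the 10 rows was higher (RGS16) and 0 were lower, where 4.52% of all genes were past 1.5-fold up and 4.34% down. Up in both lines, among 14721 genes with enough counts in each, were 0.693%, with RGS16 among them. The median log2 ratio of the 10 rows was 0.21 for SK-MEL-28 and 0.12 for A375, against -0.004 and 0.004 over all genes. Nothing is read from these counts, since the genes were chosen with this contrast known. Apart from RGS16, the log2 ratios of RGS19 and RGS20 were positive and those of RGS14 negative in both lines with intervals apart from 0, which the plot of ratios in both lines shows against all genes.

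**Figure D3:**
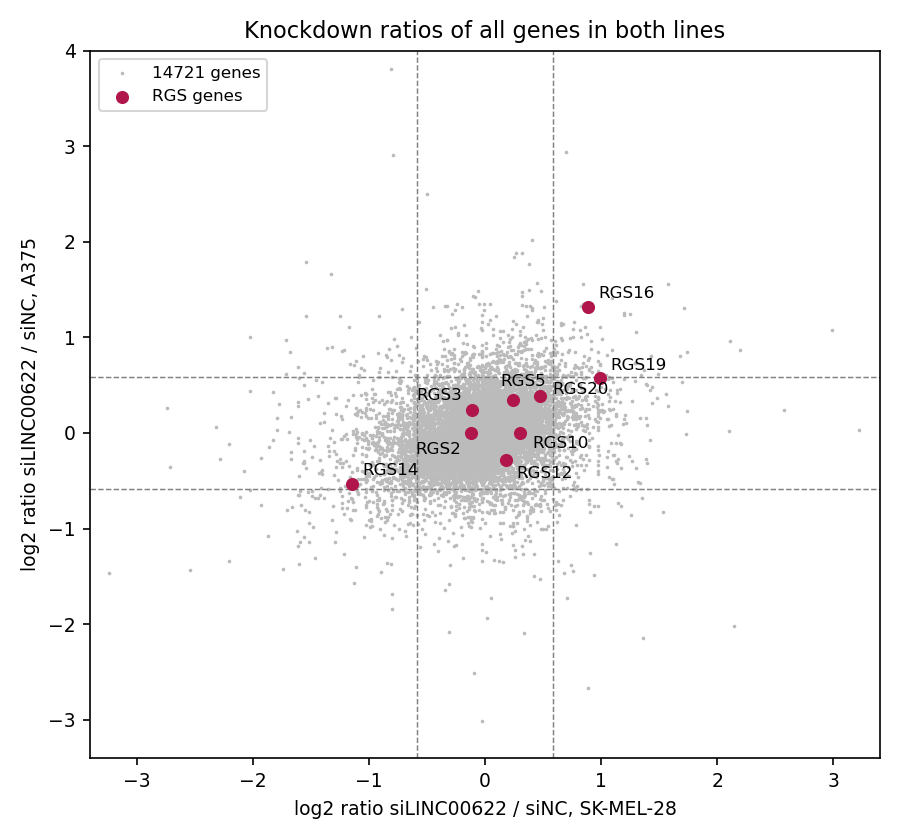
Log2 ratio of siLINC00622 to siNC in SK-MEL-28 (horizontal) and in A375 (vertical). Grey points are 14721 genes with at least 10 counts in 1 library of each line, red points are the RGS genes, and dashed lines mark 1.5-fold. RGS16, at 0.89 and 1.32, is in the upper right field, and RGS19, at 0.99 and 0.57, lies on its lower edge.

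Next, the levels of the RGS genes were compared between the lines, which their choice did not use. All 10 rows differed at an adjusted p under 0.05 by edgeR's quasi-likelihood test with treatment as a term, 5 higher in A375 and 5 higher in SK-MEL-28. Of all 16310 genes tested, 35% were higher in A375 and 33.8% in SK-MEL-28, so most genes of the table differed. The fit has 1 residual degree of freedom, which is the difference of the treatment ratio between the lines. The spread it uses is also shared across all genes tested. Each line is a single line with no replicate of a condition, so the p-values do not measure the spread between replicate cultures.

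RGS16 was 7.16-fold higher in A375 (log2 difference 2.84, SE 0.19, adjusted p = 2.4e-05), with a mean scaled level above SK-MEL-28 in both treatments. RGS14 had the greatest difference of the 10 rows in the direction of A375, 11.6-fold (3.54, SE 0.28, adjusted p = 5e-05). Fits with a library left out had no treatment term, so treatment was uneven between the lines and its ratio entered the difference. In these fits the log2 difference of RGS14 was 4.24 without the SK-MEL-28 siNC library and 2.95 without the SK-MEL-28 siLINC00622 library. That of RGS16 was 3.46 without the A375 siNC library and 2.13 without the A375 siLINC00622 library. RGS2 (0.96, SE 0.15, adjusted p = 0.0011), RGS19 (0.91, SE 0.14, adjusted p = 0.0013) and RGS3 (0.75, SE 0.13, adjusted p = 0.0019) were also higher in A375. The call of RGS19 was lost without the treatment term in the same test (0.87, adjusted p = 0.069). Its log2 difference was 0.60 without the A375 siLINC00622 library and 0.39 without the SK-MEL-28 siNC library, again with no treatment term.

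RGS10 (-2.99, SE 0.12, adjusted p = 2.4e-06), RGS20 (-2.90, SE 0.12, adjusted p = 3e-06) and RGS12 (-2.14, SE 0.13, adjusted p = 1.8e-05) were higher in SK-MEL-28. Each had a level there several times that in A375 under both treatments. The noncoding RGS5 locus (-1.66, SE 0.22, adjusted p = 0.00056) and RGS5 (-1.01, SE 0.22, adjusted p = 0.0056) were higher in SK-MEL-28 as well. The call of RGS5 was lost by DESeq2 (-1.03, adjusted p = 0.17). Its log2 difference was -0.77 without the A375 siNC library, in a fit with no treatment term. The 2 listed pericyte markers went the other way, with sums of 0.111 and 0.138 FPKM in SK-MEL-28, against 4.59 and 4.56 FPKM in A375. The R4, R12 and RZ genes followed here each went both ways between the lines.

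**Figure D4:**
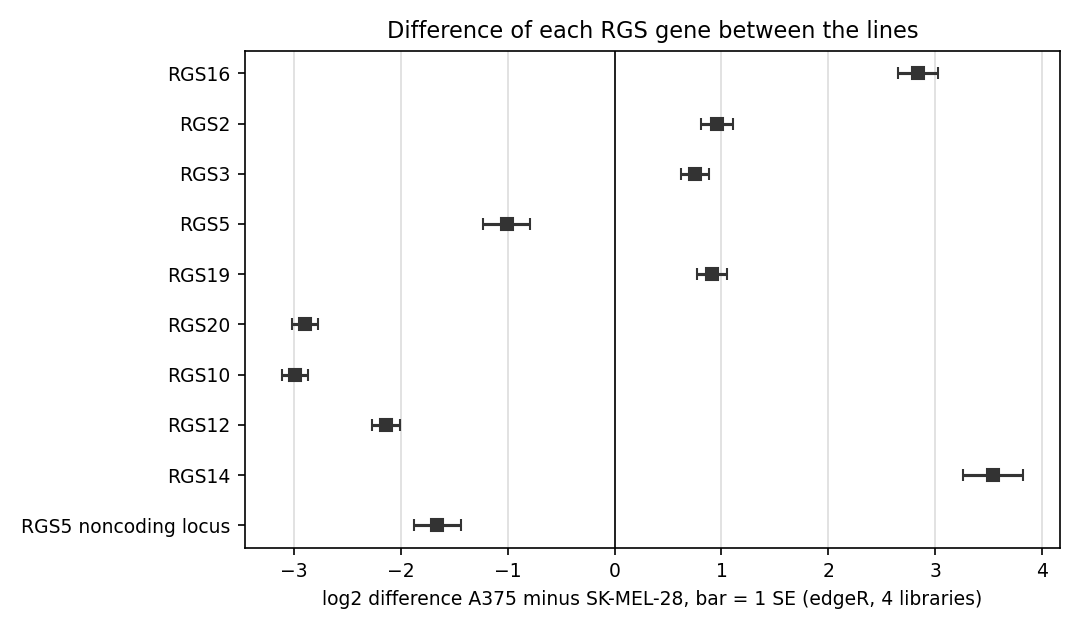
Log2 difference of each RGS gene between the lines, A375 minus SK-MEL-28, from the edgeR fit over the 4 libraries, with bars for 1 SE. RGS14 (3.54) and RGS16 (2.84) are farthest to the side of A375, and RGS10 (-2.99) and RGS20 (-2.90) farthest to the side of SK-MEL-28.

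The level was also summed per library to see which RGS genes dominate. FPKM divides by a fixed length per gene, 1274 bases for RGS10 against 13755 for RGS12, so the order and shares depend on these lengths. In counts, RGS12 (2168 and 2503) was closer to RGS10 (3051 and 3829) in SK-MEL-28 than it was in FPKM. Summed over the 9 genes, the level was 96.2 FPKM (siNC) and 120 FPKM (siLINC00622) in SK-MEL-28, against 38.1 and 48 FPKM in A375. In SK-MEL-28, RGS10 alone gave 75.2% and 73.4% of this sum, and RGS20 was next at 10.2% and 11.3%. In A375, RGS10 gave 29.6% and 23.3%, RGS19 24.5% and 28.9%, RGS2 17.5% and 13.8%, and RGS16 9.68% and 19.1%. RGS19 thus had the highest level in the A375 siLINC00622 library, with 13.8 FPKM against 11.2 FPKM for RGS10. By level, RGS16 was 7 of 9 in both SK-MEL-28 libraries, 4 of 9 in the A375 siNC library and 3 of 9 in the A375 siLINC00622 library.

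By subfamily, R12 genes held 80.3% and 77.9% of the summed FPKM in SK-MEL-28, against 38.4% and 28.5% in A375. R4 genes held 5.55% and 4.58% in SK-MEL-28, against 33.1% and 38.5% in A375. RZ genes held 14.2% and 17.5% in SK-MEL-28, against 28.5% and 33% in A375, with the greater share in the siLINC00622 library of each line. With RGS1 (R4), RGS17 (RZ), RGS7 and RGS9 added, a choice made after the data were seen, the R4 share was 7.63% and 7.61% in SK-MEL-28, against 31.1% and 36.4% in A375. The RZ share was then 13.9% and 17%, against 29.4% and 33.7%, in the same order. These shares have no replicate within a condition.

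Other genes of the pathway came from lists of RGS genes, G protein subunits, modulators, effectors and receptors. Of 14 further RGS symbols and their binding proteins, 5 were listed. RGS9BP, for a binding protein and not an RGS protein, had 64 and 99 counts in SK-MEL-28, against 29 and 25 in A375. Its log2 ratio was 0.58 (0.13 to 1.07) in SK-MEL-28 and -0.39 (-1.26 to 0.40) in A375. RGS1, an R4 gene of lymphoid cells, had 296 and 550 counts in SK-MEL-28 (log2 ratio 0.86, interval 0.66 to 1.07) and 2 and 1 in A375, where no ratio can be read. RGS9, known from photoreceptors and striatum, had 47 and 18 counts in SK-MEL-28, against 64 and 140 in A375. Its log2 ratio was -1.32 (-2.29 to -0.60) in SK-MEL-28 and 0.90 (0.48 to 1.37) in A375, so it went opposite ways. RGS7 was listed at 0 counts in both SK-MEL-28 libraries, which allows up to 3 counts in each, and had 92 counts in each A375 library, with a log2 ratio of -0.21 (-0.64 to 0.22). RGS17, of the RZ subfamily like RGS19 and RGS20, had 25 and 21 counts in SK-MEL-28, against 268 and 368 in A375. Its log2 ratio was -0.26 (-1.19 to 0.61) in SK-MEL-28 and 0.25 (0.02 to 0.48) in A375, so it did not share their sign in SK-MEL-28, within an interval that includes 0.

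Of 14 other genes with an RGS-homology domain, all were listed, and 1 was past 1.5-fold, down in SK-MEL-28 (7.14%, against 6.49% of all genes). That gene was SNX25, a sorting nexin, with 1525 and 951 counts in SK-MEL-28 (log2 ratio -0.71, interval -0.83 to -0.59) and -0.33 (-0.44 to -0.23) in A375. ARHGEF11, an exchange factor driven by G alpha 12 and 13 and the gene of highest mean FPKM in that list, had log2 ratios of -0.31 (-0.36 to -0.26) and -0.03 (-0.09 to 0.02).

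The substrates of RGS proteins, the G alpha subunits, had 11 of 13 symbols listed, with 0 past 1.5-fold in either line. Of all genes, 4.56% were past it up and 6.49% down in SK-MEL-28, against 4.52% and 4.34% in A375. With shares this low, 0 of 11 is not read as a trait of these genes. The log2 ratios of the G alpha subunits ran from -0.48 to 0.37 in SK-MEL-28 and from -0.37 to 0.23 in A375, with medians of 0.06 and 0.04. GNAS, which encodes G alpha s and had the highest mean FPKM of the list, was at 47.9 and 49.2 FPKM in SK-MEL-28, against 54.7 and 62.8 FPKM in A375. GNAZ, which encodes the G alpha z that RGS20 acts on, had 223 and 163 counts in SK-MEL-28 (log2 ratio -0.48, interval -0.78 to -0.19) and 37 in each A375 library. GNAO1, for G alpha o, had log2 ratios of -0.36 (-0.49 to -0.24) and -0.37 (-0.63 to -0.12). Between the lines, 8 of the 11 were higher in SK-MEL-28 and 2 in A375 by the same test, and GNAZ (-2.53, SE 0.22, adjusted p = 7.3e-05) was higher in SK-MEL-28, as RGS20 was. Of the other lists, 3 of 5 further RGS rows, RGS9BP included, were higher in A375 while 2 were higher in SK-MEL-28. For genes with an RGS-homology domain it was 3 and 5 of 14. For beta and gamma subunits it was 6 and 6 of 14, for modulators 4 and 3 of 7, for effectors 3 and 4 of 10 and for receptors 10 and 7 of 20, in the same order.

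Of the G beta and gamma subunits, 14 of 17 were listed, and 11 reached 10 counts in SK-MEL-28 and 14 in A375. Only 1 was past 1.5-fold, GNG13, downwards in A375 (7.14%, against 4.34% of all genes). It had 47 and 22 counts there (log2 ratio -1.23, interval -2.11 to -0.55). GNB1, the beta subunit of highest mean FPKM over the 4 libraries, was at 125 and 136 FPKM in SK-MEL-28, against 73.8 and 78.7 FPKM in A375. Among rows that reached 50 counts in the line, GNG7 had the list's highest log2 ratio in both lines, 0.26 (-0.01 to 0.53) and 0.50 (-0.04 to 1.09), with both intervals reaching 0.

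Among 7 modulators of G alpha and arrestins, 1 was past 1.5-fold, downwards in SK-MEL-28 (14.3%, against 6.49% of all genes). It was GPSM3, with 41 and 20 counts there (interval of the log2 ratio -1.92 to -0.26). RIC8A, a chaperone of G alpha subunits, had log2 ratios of -0.06 and -0.02. GPSM1, a GoLoco protein that holds inactive G alpha i, had -0.49 (-0.63 to -0.35) in SK-MEL-28 and -0.03 (-0.10 to 0.04) in A375. ARRB2, an arrestin that uncouples receptors, had -0.30 (-0.46 to -0.14) and -0.44 (-0.56 to -0.31). The other arrestin of the list, ARRB1, went the opposite way, with 0.38 (0.28 to 0.48) and 0.38 (0.25 to 0.50).

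Of 13 effectors, adenylyl cyclases and phospholipases C beta, 10 were listed and 9 reached 10 counts in each line. Of these, 0 were past 1.5-fold in either line. The shares of all genes were 4.56% up and 6.49% down in SK-MEL-28, against 4.52% and 4.34% in A375, so nothing is read from the 0. PLCB3 had log2 ratios of -0.19 (-0.28 to -0.10) and -0.29 (-0.38 to -0.20), PLCB4 0.27 (0.18 to 0.36) and 0.36 (0.15 to 0.57), and PLCB1 -0.53 (-0.73 to -0.34) and 0.13 (-0.03 to 0.30), in SK-MEL-28 and A375.

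Of 36 receptors, 20 were listed, and 18 reached 10 counts in SK-MEL-28 and 19 in A375. In SK-MEL-28, 2 were past 1.5-fold up, GPR143 and F2RL1 (11.1%, against 4.56% of all genes). Down there were 4, F2R, S1PR2, ADORA1 and HTR2B (22.2%, against 6.49% of all genes). In A375 1 was past the limit, P2RY1, downwards (5.26%, against 4.34% of all genes). GPR143, a receptor of melanosomes, had 4517 and 6999 counts in SK-MEL-28 (log2 ratio 0.60, interval 0.55 to 0.65) and 24 and 33 in A375. HTR2B, a serotonin receptor that couples to Gq, had 1054 and 450 counts in SK-MEL-28 (-1.26, interval -1.42 to -1.10) and 2 and 5 in A375. P2RY1, a purine receptor, had 428 and 313 counts in A375 (-0.66, interval -0.88 to -0.45) and 47 and 43 in SK-MEL-28. F2RL1 (12 and 22 counts) and ADORA1 (12 and 4 counts) had intervals in SK-MEL-28 that include 0.

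**Figure D5:**
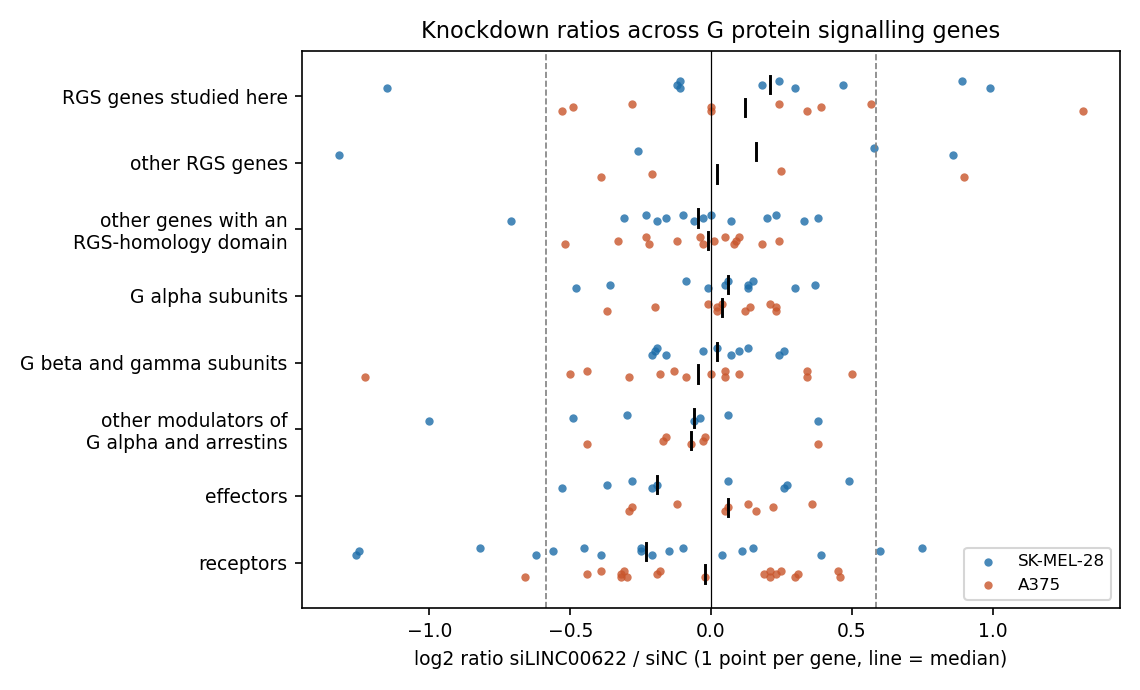
Log2 ratio of siLINC00622 to siNC for each gene of the lists in SK-MEL-28 (blue) and A375 (orange), for rows with at least 10 counts in the line. Black bars are medians and dashed lines mark 1.5-fold. No G alpha subunit or effector lies past a dashed line, and RGS16 in A375, at 1.32, is the point farthest to the right. Of all genes, 4.56% were past 1.5-fold up and 6.49% down in SK-MEL-28, against 4.52% and 4.34% in A375.

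Finally, the genes whose pattern over the 4 libraries was most like that of RGS16 were sought among 11530 genes with at least 50 counts in every library, a limit that RGS16 itself misses with 43 counts. Likeness was the distance between log2 profiles centred on their means, with 0 for an equal pattern. ITGA5, the alpha subunit of the fibronectin receptor, was nearest at 0.44, followed by ZSWIM4 (0.71), ZNF385A (0.71), PCDH10 (0.73) and BTG2 (0.73). ITGA5 had 801 and 1538 counts in SK-MEL-28, against 6363 and 11857 in A375, with log2 ratios of 0.91 (0.79 to 1.03) and 0.69 (0.64 to 0.73). ZNF385A and ZSWIM4 had ratios of 0.31 and 0.10 in SK-MEL-28, against 0.92 and 0.73 in A375. PCDH10 had 0.72 and 0.49, and BTG2, an antiproliferative gene induced by p53, 0.03 and 0.73, in the same order. No RGS gene was among them. Of the RGS genes named with RGS16 at the outset, RGS19 was the nearest at 1.93, at place 744, and RGS10 the farthest at 5.85. RGS1, RGS5, RGS7, RGS9, RGS14 and RGS17 had under 50 counts in a library and were given no place. The distance rests on 4 libraries, and libraries of a line share that line. RGS16 differed more between the lines (log2 2.84) than between treatments (0.89 and 1.32), so the difference between lines weighs most in it. For ZSWIM4 (-0.47 to 0.67) and BTG2 (-0.40 to 0.46) the interval of the ratio in SK-MEL-28 includes 0. A shared response to the knockdown was not tested.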

How the data were processed

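RNA-Seq of cultured A375 and SK-MEL-28 cells given siNC or siLINC00622 was used, with 1 library per condition. The authors deposited whole-number counts per gene, FPKM values, CPM values scaled to the whole library, and TPM values, which were not used. The submitters' processing notes name HISAT2, HISAT, TopHat2, Bowtie2 and hg19, and the counting tool is not given in the sources used here. The library kit is not stated to keep strand. FPKM equals CPM divided by a fixed length per gene, and was used for levels between genes. Library totals of 31269923 to 36384819 counts set the counting error.

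Counts were scaled by TMM within a line on the library totals (edgeR 4.0.16, R 4.3.3). Log2 ratios (siLINC00622 over siNC) were taken with a prior count of 2 and 95% Clopper-Pearson intervals. For a difference between the ratios of the lines, the 95% interval was a normal approximation from the counts. Calls were ratios past 1.5-fold in genes that reached 10 counts in a library of the line. Lines were compared by edgeR's quasi-likelihood test with treatment as a term, over genes with at least 10 counts in 2 libraries and with Benjamini-Hochberg adjustment over all of them. Named genes were the 10 RGS symbols, LINC00622, in each list the gene of highest mean FPKM and of greatest ratio in each line with at least 50 counts, any gene past 1.5-fold one way in both lines, and the 5 genes nearest to RGS16. Other genes past 1.5-fold, RGS7, RGS17, RGS9BP, ARRB1 and genes of opposite direction were named after their values were seen. The members and lists were chosen with earlier results of these data known. Scripts were tested on simulated data. Alternatives covered scaling, prior count, FPKM pseudocounts, filters, fold limit, test (DESeq2 1.42.0) and libraries left out. Fits with a library left out had no treatment term. Other steps used Python 3.11.15.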

Additional observations from a re-analysis of the deposited data

Results flagged for a closer look

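The log2 ratio of siLINC00622 to siNC had opposite signs in the lines, with both counting intervals apart from 0, for RGS12, 1 of 10 rows, and for 8 of 71 genes of the pathway lists (11.3%). The same held for 942 of all 14721 genes with enough counts in both lines (6.4%). With 1 library per condition, these differences between the lines were not tested, and each is given for SK-MEL-28 and then A375. RGS12 had 0.18 and -0.28, and RGS9, another RGS gene, had -1.32 and 0.90. ARHGEF12, a gene with an RGS-homology domain, had -0.16 and 0.10. GNAQ, which encodes G alpha q, had -0.09 and 0.23, and GNG2, a gamma subunit, had -0.20 and 0.34. Among receptors, F2R, the thrombin receptor, had -0.62 and 0.31, and LPAR2, for lysophosphatidic acid, had -0.45 and 0.46. S1PR2, for sphingosine 1-phosphate, had -0.82 and 0.25, and HTR7, for serotonin, had -0.56 and 0.45.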

How the results depend on the processing

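The knockdown ratios kept their direction under other scalings, prior counts and pseudocounts, except RGS5 in A375 when both its rows were summed, and RGS2 and RGS10 in A375, which lay between -0.01 and 0.00. RGS16 ran from 0.38 (FPKM with a pseudocount of 1, under 1.5-fold) to 0.91 on the log2 scale in SK-MEL-28 and was 1.12 in A375 with that pseudocount. RGS14 in SK-MEL-28 was -0.14 with that pseudocount. With a 2-fold limit, 0 members were higher in SK-MEL-28, and with at least 50 counts 0 were lower there. Of all genes in SK-MEL-28, 704 were up and 1002 down. These became 1081 up without the filter on low counts, 356 and 638 with at least 50 counts, 165 and 266 with a 2-fold limit, and 458 up with the counting interval apart from 0. In A375, 724 were up and 696 down. These became 1064 down without the filter, 405 and 312 with at least 50 counts, 154 and 134 with a 2-fold limit, and 432 down with the interval apart from 0. Of 80 line differences recomputed, 75 stayed past the threshold and the 5 that did not were of RGS5 and RGS19. The number of genes higher in A375 was 5710, and with 1 library left out it lay between 3593 (without the A375 siNC library) and 4649, with 3697 without the A375 siLINC00622 library. Scaling by library totals in place of TMM shifted the line differences by a median of 0.17 on the log2 scale, and no member changed its call or direction. Fits with 1 library left out, here and above, had no treatment term, so they changed the model as well as the libraries. They moved the line differences of RGS14 and RGS16 by over 1.5 times in fold, and both genes stayed higher in A375. With all 13 listed RGS genes summed, the R4 share of the SK-MEL-28 siLINC00622 library was 7.61% in place of 4.58%. Within a line no library could be left out, and no treatment effect paired by line was tested, since RGS16 was chosen from that contrast. The counting intervals limit RGS16, RGS14 and RGS5 in SK-MEL-28 and RGS5 in A375, where counts were under 100.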
